A study of Mus musculus with 9 samples.

Results

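The type 2 vomeronasal receptor (Vmn2r) cluster of mouse chromosome 7 was examined in whole-genome bisulfite data of primordial germ cells, the embryonic precursors of eggs and sperm. The span runs from 92050001 to 94150000 of build mm9 and covers 2.1 Mb. Its members are the 1 kb windows chosen by position and by being listed, with at least 1 read at a CpG, in the tables of both genotypes. These were 1739 of 2100 windows of the span, out of 2355928 such windows on the autosomes and the X chromosome. The cells came from female C57BL/6 embryos at embryonic day 13.5, either Tet1-null (labelled Tet1 -/-, 5 libraries from 1400 to 4700 cells) or wild type (WT, 4 libraries from 1575 to 5251 cells). Tet1 encodes an enzyme that oxidises 5-methylcytosine. The labels name no allele beyond the Tet1 genotype, and nothing in them ties a library to an embryo. The values were deposited as 1 pooled table per genotype, so each difference is between 2 pools and has no replicate check, and intervals (95%) cover counting error only. Differences in bisulfite kit (Sigma for 2 of 5 Tet1-null and 2 of 4 WT libraries) or in sequencing run (run 1 held 0 Tet1-null libraries and 1 WT library) cannot be told apart from the genotype.

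Vmn2r genes encode receptors with a large extracellular domain that sensory neurons of the vomeronasal organ use to detect pheromones, among them peptides and urinary proteins. The family grew by repeated duplication, so that its genes stand in clusters with close copies and pseudogenes beside them. Germ cells of this age have lost most of their DNA methylation in the erasure that precedes sex-specific remethylation.

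The gene content of the span was not checked against an annotation of mm9. In the order of genes that RefSeq gives on build GRCm38.p6, the stretch from Vmn2r65 to Vmn2r79 holds 15 Vmn2r genes and 24 Vmn2r pseudogenes. Between Vmn2r76 and Vmn2r77 the same order has a block of olfactory receptor genes (Olfr, 15 genes and 3 pseudogenes) and Folh1, which encodes a glutamate carboxypeptidase. The gene starts themselves hold few CpG dinucleotides. RefSeq promoter sequences, 250 bases before to 50 after the start on GRCm38.p6, were found for 13 of the 15 Vmn2r genes. They held 0 to 2 CpG each, with a median of 1, and 3 of them held none. All 13 held 2 or fewer, as did 23.3% of 32851 mouse promoters, whose median was 7. Low CpG content is shared with other receptor genes, since 10 of 11 matched Olfr promoters of the same stretch and 82 of 104 promoters of Vmn2r genes elsewhere held 2 or fewer. The promoter of Fah, which encodes an enzyme of tyrosine breakdown and lies before the cluster in that order, held 19, and that of Nox4, which encodes an NADPH oxidase and lies after it, held 24. The promoter of Tyr, the tyrosinase gene next to Nox4, held 0.

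The 13 promoters resemble each other to varying degrees. Over 78 pairs, global alignment gave 60.7% to 93.3% identical bases with a median of 80.2%. Vmn2r78 and Vmn2r79 were the most alike pair. They are shown with Vmn2r68, which holds no CpG and is 72.3% identical to either, because the set shows how few sites can be methylated at these starts and how far the copies range from close to distant. On GRCm38.p6 they lie at chr7:86915099-86915398 (plus strand), chr7:86996215-86996514 (plus strand) and chr7:85237655-85237954 (minus strand), numbers that cannot be set beside the mm9 positions of the windows. The sequences run 5′ to 3′ and capitals mark each CpG.
Vmn2r78: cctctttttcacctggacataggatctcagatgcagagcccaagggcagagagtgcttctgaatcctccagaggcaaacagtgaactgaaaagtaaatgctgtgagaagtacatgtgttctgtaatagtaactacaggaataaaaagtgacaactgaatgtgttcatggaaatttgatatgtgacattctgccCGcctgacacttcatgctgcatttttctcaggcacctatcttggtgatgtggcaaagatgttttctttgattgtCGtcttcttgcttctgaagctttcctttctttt
Vmn2r79: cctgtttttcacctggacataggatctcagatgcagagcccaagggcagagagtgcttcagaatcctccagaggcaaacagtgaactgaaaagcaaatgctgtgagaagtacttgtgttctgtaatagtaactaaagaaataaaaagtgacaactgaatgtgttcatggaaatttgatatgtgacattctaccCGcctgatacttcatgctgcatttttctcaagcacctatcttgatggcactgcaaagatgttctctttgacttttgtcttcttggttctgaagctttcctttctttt
Vmn2r68: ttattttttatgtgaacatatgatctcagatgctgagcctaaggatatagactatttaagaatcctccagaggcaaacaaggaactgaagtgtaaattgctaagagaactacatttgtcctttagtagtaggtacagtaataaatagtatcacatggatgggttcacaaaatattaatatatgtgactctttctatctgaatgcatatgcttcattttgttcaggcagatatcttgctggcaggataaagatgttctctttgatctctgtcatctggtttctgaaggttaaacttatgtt
The methylation of these promoters was not read from the tables, because the builds differ.

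The windows of the cluster held a median of 4 CpG positions listed in either table (range 1 to 34). The median was 6 in the 3 Mb flank before it, 4 in the flank after it and 7 in the rest of chromosome 7. Of the windows of the span, 7.48% had no listed CpG in either pool, against 2.53% in the flank before it and 4.43% in the flank after it. The median window held 8 reads in the Tet1-null pool and 5 in the WT pool, so single windows carry little information. Per listed CpG site the Tet1-null pool had 2.68 reads in the cluster and 2.82 in the flanks, and the WT pool had 2.12 and 2.20. No member window held more than 20 times the median number of reads per window of its pool. Single windows were deep for their few positions, since 5 members in the Tet1-null pool and 2 in the WT pool had more reads per position, on average, than 99% of sites have in that pool (9 and 7 reads). The deepest, from 92909001 to 92910000, had 121 and 53 reads over 6 positions. Whether reads of close copies were placed correctly was not tested.

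Methylation in the cluster was higher than in its surroundings in both pools. In the Tet1-null pool 1328 of 18201 reads at CpG sites were methylated, 7.30% (Wilson interval 6.93 to 7.68%), against 3.99% (3.87 to 4.12%) in the flanks. In the WT pool it was 712 of 11895 reads, 5.99% (5.57 to 6.43%), against 3.37% (3.23 to 3.52%) in the flanks. The cluster thus stood 3.30 points (Newcombe interval 2.91 to 3.71) above its flanks in the Tet1-null pool and 2.62 points (2.18 to 3.08) in the WT pool, or 1.83-fold and 1.78-fold. The levels of the flanks before and after the cluster lay close to each other, at 4.06% and 3.89% in the Tet1-null pool and 3.39% and 3.34% in the WT pool. The rest of chromosome 7 was at 4.12% in the Tet1-null pool and 3.56% in the WT pool. Because the position of the cluster was picked with such levels known, these are descriptions and carry no test. On the mitochondrial genome, a measure of cytosines left unconverted, 1.29% of reads in the Tet1-null pool and 1.66% in the WT pool read as methylated. In the Tet1-null pool the excess over the flanks depended on the sites used. Where only sites with at least 3 reads per pool were kept, it was 0.278 points (-0.410 to 1.05), and in the WT pool 2.07 points (1.23 to 3.02).

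The rest of chromosome 7 was also compared at an equal number of listed CpG positions. Standardised to the number of positions in the cluster windows, the rest of chromosome 7 was at 3.70% in the Tet1-null pool and 3.30% in the WT pool. The cluster stood above these values by 3.60 points (3.22 to 3.98) in the Tet1-null pool and by 2.69 points (2.26 to 3.12) in the WT pool. At sites with at least 3 reads per pool the Tet1-null excess was 0.718 points (0.0427 to 1.39). In the sparsest windows, those with 1 to 4 positions, the Tet1-null excess over the rest of chromosome 7 was not found, at -0.150 points (-0.536 to 0.285). In the WT pool the cluster stood 0.555 points (0.0737 to 1.10) above it in these windows. Cut into 65 pieces of the length of the cluster, chromosome 7 had its 4th highest Tet1-null level and its 7th highest WT level there. The number of positions per window, 4.46, ranked 62nd of the 65. Among 1142 such pieces of all autosomes the cluster ranked 35th in the Tet1-null pool and 65th in the WT pool. The cluster as a whole thus had few listed CpG positions per window and a level in the upper part of the range. A position is listed only where it has a read, and the number of CpG in the mm9 sequence was not counted. Within the cluster the sparse windows had the lower levels, as given below.

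The level varied along the span. In 21 bins of 100 kb it ran from 1.92% to 14.4% in the Tet1-null pool, with a median of 7.31%, and from 1.52% to 11.7% in the WT pool, with a median of 6.20%. The medians of the 60 flank bins were 3.34% and 2.77%, and 17 of 21 cluster bins in the Tet1-null pool and 16 in the WT pool lay above them. The ranges overlapped, since 4 flank bins in the Tet1-null pool and 6 in the WT pool exceeded the median of the cluster. The 3 bins with the highest levels of both pools together were neighbours. The bin from 92550001 to 92650000 had 14.4% (12.2 to 17.0%) in the Tet1-null pool and 8.48% (6.24 to 11.4%) in the WT pool. The next bin, from 92650001 to 92750000, had 12.2% and 11.0%, and the bin before both, from 92450001, had 11.0% and 9.95%. The 3 lowest were the first bin of the span, from 92050001, at 1.92% and 1.52%, the bin from 93850001 at 2.31% and 1.86%, and the bin from 93550001 at 2.31% and 1.96%.

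**Figure D1:**
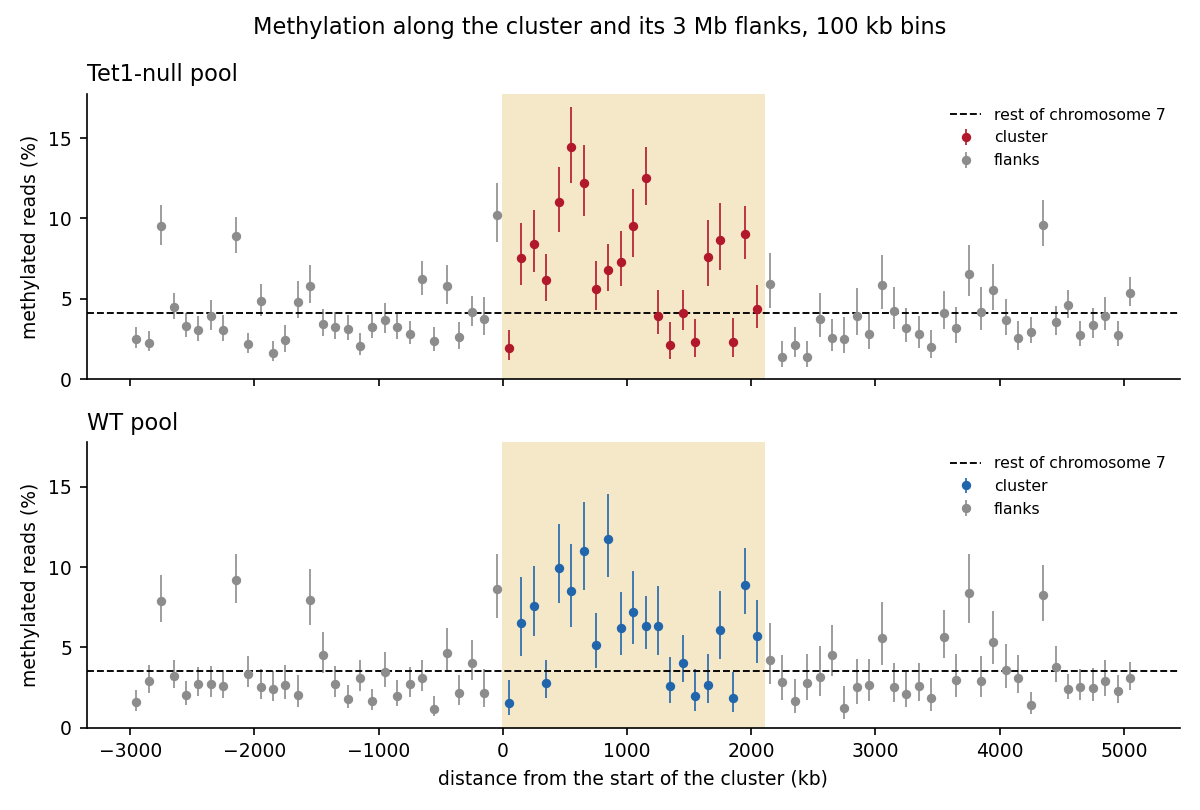
Methylated reads (%) in 100 kb bins against the distance (kb) from the start of the cluster, Tet1-null pool above and WT pool below. Points are bins with Wilson 95% intervals, coloured within the cluster (shaded) and grey in the flanks, and the dashed line is the rest of chromosome 7 (4.12% and 3.56%). Most cluster bins lie above the line in both pools, and the highest Tet1-null bin, at 14.4%, starts 500 kb into the cluster.

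The windows with many CpG positions were few and had the highest levels. The 118 windows with 10 or more positions made up 6.79% of the members and held 19.6% of the reads in the Tet1-null pool and 17.3% in the WT pool. They held 52.4% of the methylated reads of the Tet1-null pool and 42.4% of those of the WT pool. Windows of this class held similar or larger shares elsewhere, 50.9% and 50.3% in the flanks and 60.7% and 57.7% in the rest of chromosome 7, but there they made up 17.7% and 29.2% of the windows. Their level was 19.5% (18.2 to 20.8%) in the Tet1-null pool and 14.7% (13.2 to 16.3%) in the WT pool. In the 971 flank windows of this kind it was 5.53% and 4.73%. The level went up with the number of positions. In windows with 1 to 4 positions it was 3.21% in the Tet1-null pool and 3.66% in the WT pool, and in those with 5 to 9 it was 5.42% and 4.75%. With 10 to 19 positions it reached 16.1% and 13.1%, and in the 15 windows with 20 or more 32.4% and 21.9%. In these 15 windows only 37.8% of positions were listed in both pools. With both pools weighted equally in each window, they were at 24.6% in the Tet1-null pool and 24.1% in the WT pool. In the flanks the same 4 classes were at 2.81, 3.22, 4.68 and 8.78% in the Tet1-null pool, and in the WT pool they were at 2.44, 2.68, 3.75 and 8.97%, a much flatter course. In the sparsest class the cluster exceeded its flanks by 0.404 points (-0.0610 to 0.899, which includes 0) in the Tet1-null pool and by 1.22 points (0.654 to 1.83) in the WT pool. In these windows, 65.4% of the members, the excess over the flanks was thus small in the Tet1-null pool. In the WT pool it was larger, though below the 2.62 points over all windows.

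**Figure D2:**
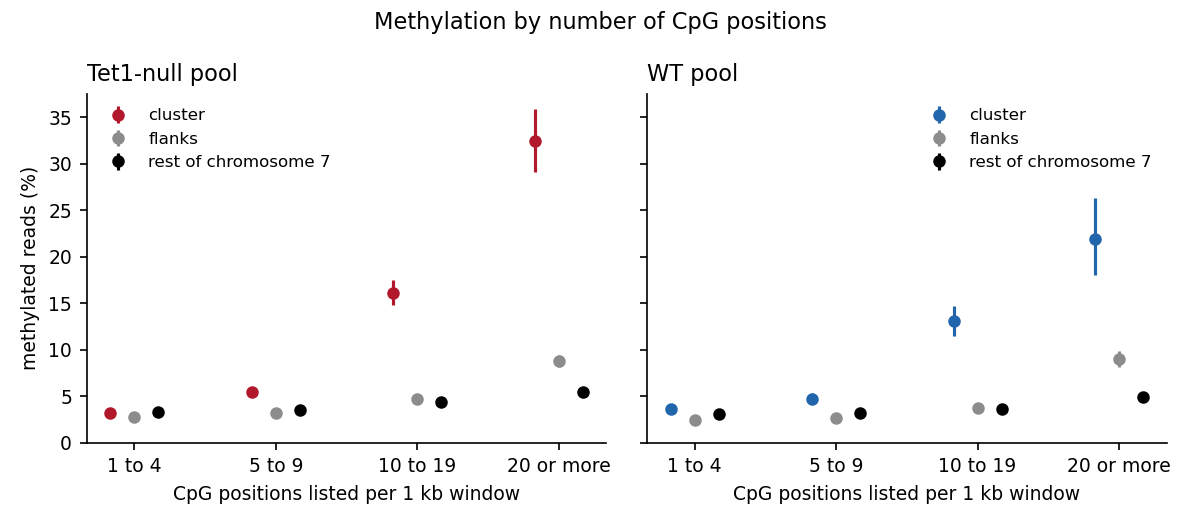
Methylated reads (%) by the number of CpG positions listed per 1 kb window, Tet1-null pool left and WT pool right, for the cluster (colour), its flanks (grey) and the rest of chromosome 7 (black), with Wilson 95% intervals. Cluster windows with 20 or more positions reach 32.4% and 21.9%, while flank windows of that class stay at 8.78% and 8.97%. Each pool is weighted by its own reads. With equal weights in each window these cluster windows are at 24.6% and 24.1%.

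Windows with few positions were more methylated where they touched a CpG-rich one. Among windows with 1 to 9 positions, the 137 that lay next to a window of 10 or more were at 7.95% (6.77 to 9.32%) in the Tet1-null pool and 9.92% (8.28 to 11.8%) in the WT pool. Those 2 to 3 kb away were at 4.25% and 4.74%, those 4 to 9 kb away at 4.22% and 3.86%, and the 763 windows 10 kb or more away at 3.41% and 2.81%. In the flanks the neighbours of CpG-rich windows were at 3.48% and 2.75%, and windows 10 kb or more away at 2.62% and 2.42%. The step beside CpG-rich windows was thus 4.54 points in the Tet1-null pool and 7.11 points in the WT pool in the cluster, when set against windows 10 kb or more away. The neighbours also held more positions, with a mean of 5.09 against 3.53 in the cluster and 5.66 against 4.01 in the flanks. The step was not adjusted for this.

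Adjacent CpG-rich windows formed 86 stretches, of which 17 spanned 2 or more windows. Methylated reads were found in both pools in 42 of the 86, or 48.8%, against 174 of 624 stretches (27.9%) in the flanks. The longest stretch, from 93157001 to 93165000, held 133 positions, with 67 methylated reads of 329 in the Tet1-null pool (20.4%) and 20 of 205 in the WT pool (9.76%). A stretch from 92602001 to 92605000 had the highest level among those with 20 or more reads in each pool, with 56 of 94 reads (59.6%) in the Tet1-null pool and 10 of 20 in the WT pool. In the stretch from 92670001 to 92673000 it was 38 of 133 (28.6%) and 31 of 93 (33.3%). The stretch from 92907001 to 92909000 was also lower in the Tet1-null pool. It had 22 of 108 reads (20.4%) there and 31 of 58 (53.4%) in the WT pool. Of the 29 stretches with 20 or more reads in each pool, the Tet1-null level was higher in 17 and lower in 12. The counting interval lay above 0 in 1 of them and below 0 in 2. What these stretches are (genes, pseudogenes or repeats) was not analysed here.

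Single windows were described where 3 or more positions were covered in both pools and each pool had 10 or more reads, which held for 277 members (15.9%). Of these, 33 had a level of 20% or more in the Tet1-null pool and 34 in the WT pool, and 15 had it in both. In the flanks 66 and 62 of 2057 such windows did, and 28 in both. The shares at 20% or more were thus 11.9% and 12.3% in the cluster, against 3.21% and 3.01% in the flanks. The highest window, from 92526001 to 92527000, had 30 of 48 methylated reads in the Tet1-null pool and 5 of 11 in the WT pool. It belongs to a stretch of 3 CpG-rich windows. The next in order was 92514001 to 92515000, with 18 of 28 reads in the Tet1-null pool and 2 of 15 in the WT pool. The window from 92672001 to 92673000 had 13 of 37 and 16 of 34, that from 93821001 to 93822000 had 11 of 21 and 4 of 17, and that from 92670001 to 92671000 had 12 of 32 and 8 of 22. Of the 43 members with at least 5 shared positions and 20 reads in each pool, 0 reached 50% in the Tet1-null pool and 1 in the WT pool. Over all 372073 such windows of the autosomes and X, 2188 and 2265 did, and in the flanks 5 and 5 of 507. The counts among 43 members are too small to compare with these.

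**Figure D3:**
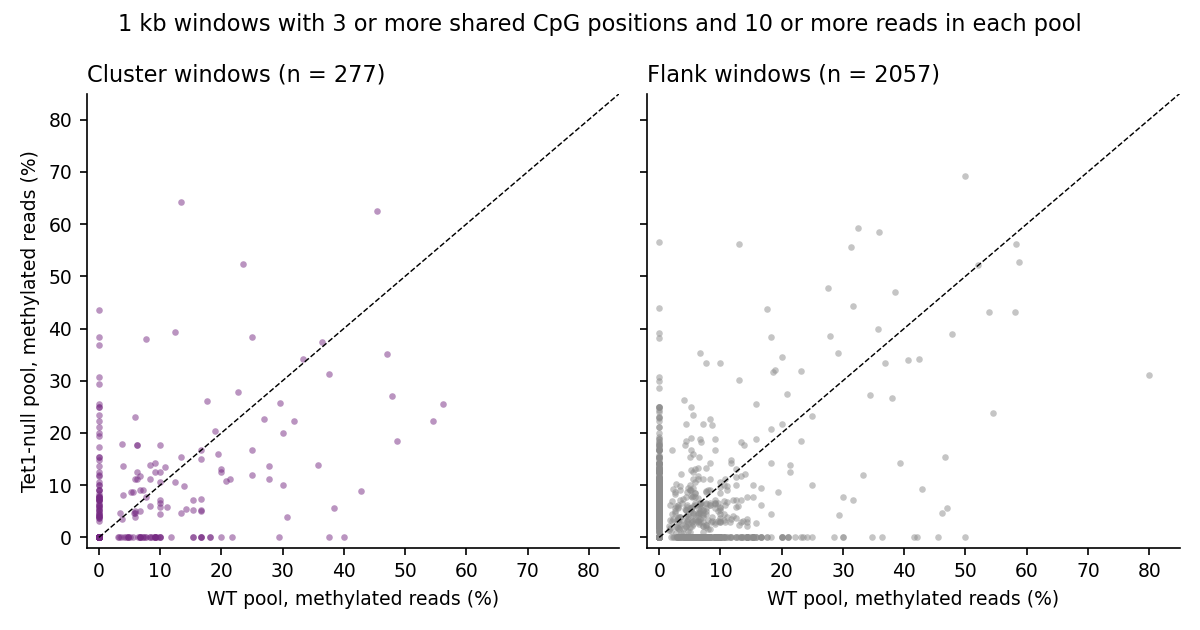
Methylated reads (%) of the Tet1-null pool against those of the WT pool in 1 kb windows with 3 or more shared positions and 10 or more reads in each pool, cluster left (277 windows) and flanks right (2057 windows). The dashed line marks equal levels. In both panels windows lie on either side of the line, and many have no methylated read in 1 of the pools.

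The pools marked partly the same places. Between the pools, levels across the 277 windows correlated with Pearson's r at 0.435 and Spearman's rho at 0.370, and across the 2057 flank windows at 0.437 and 0.144. These are descriptions over neighbouring windows of the same 2 pools. Of 535 sites at which the WT pool of the span held a methylated read, 434 had reads in the Tet1-null pool. Those 434 were at 13.9% (12.2 to 15.8%) there, and sites without a methylated WT read were at 5.06%. Of 1043 sites methylated in the Tet1-null pool, 564 had reads in the WT pool. Those 564 were at 15.8% (13.8 to 18.0%) there, and sites without a methylated Tet1-null read were at 4.49%. The signal reached beyond the site. The Tet1-null level was 17.8% within 50 bp of a site methylated in the WT pool and 13.5% at 51 to 200 bp. It was 9.91% at 201 to 500 bp and 7.78% at 501 to 1000 bp. Farther out it did not fall steadily, with 4.23% at 1001 to 2000 bp, 5.70% at 2001 to 5000 bp and 5.27% at 5001 to 10000 bp. Windows listed in the Tet1-null pool alone, at 16.1% in the span, add reads to these values. Their share at each distance was not separated. In the flanks the Tet1-null level was 13.3% at the site itself, near the value of the cluster, but 4.96% at 51 to 200 bp. In the reverse direction the flanks were at 9.93% (9.06 to 10.9%) at the site itself, below the 15.8% of the cluster. The WT level around sites methylated in the Tet1-null pool was 13.9% within 50 bp, 8.03% at 51 to 200 bp and 4.57% at 501 to 1000 bp in the cluster, and 7.81%, 3.17% and 2.67% at these distances in the flanks. Methylated sites of the cluster thus had more methylated surroundings than those of the flanks, in either direction of the comparison.

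**Figure D4:**
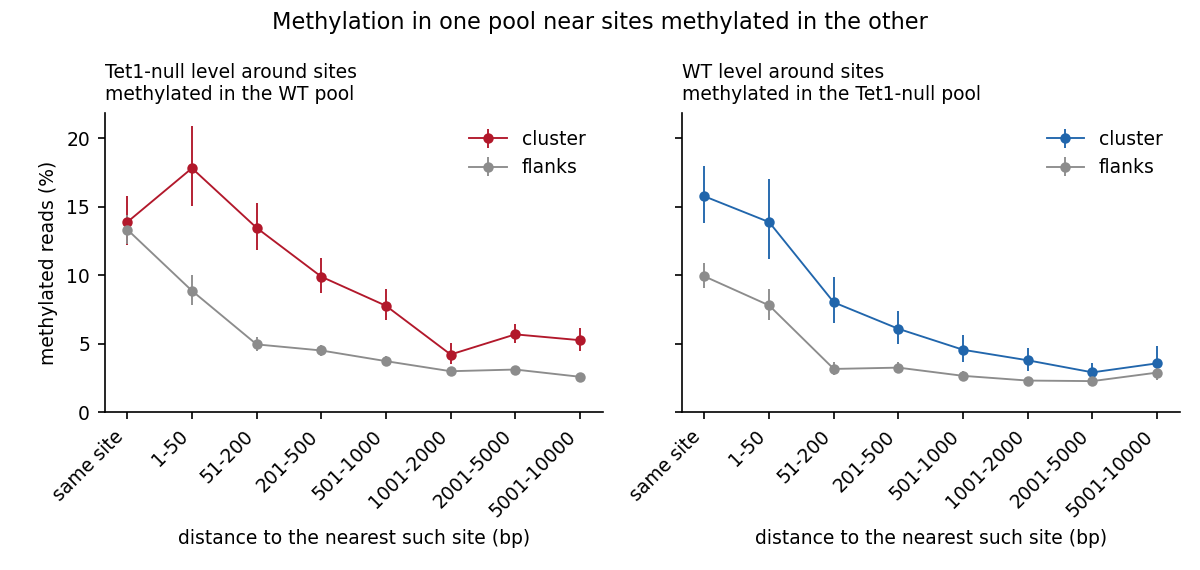
Methylated reads (%) in the Tet1-null pool by distance (bp) to the nearest site with a methylated read in the WT pool (left), and the reverse (right), in the cluster (colour) and the flanks (grey), with Wilson 95% intervals. At 51 to 200 bp the cluster is at 13.5% and 8.03%, and the flanks are at 4.96% and 3.17%.

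The difference between the pools was less settled than the level. Over all reads the Tet1-null pool stood 1.31 points (0.736 to 1.88) above the WT pool in the cluster, against 0.624 points (0.429 to 0.817) in the flanks. As a ratio this was 1.22 (1.12 to 1.33) in the cluster and 1.19 (1.12 to 1.25) in the flanks. The difference in the cluster exceeded that in the flanks by 0.687 points (0.0847 to 1.29). This excess turned to -0.366 points at sites listed in both pools, -0.411 points with equal weights and -1.79 points at sites with at least 3 reads per pool, and with flanks of 1 Mb it was 0.634 points (-0.0446 to 1.31). Counted by reads, it lay in the CpG-rich windows. In windows with 1 to 9 positions the pools were at 4.32% (Tet1-null) and 4.17% (WT), a difference of 0.153 points (-0.368 to 0.662), and in windows with 10 or more it was 4.80 points (2.77 to 6.78). Each pool weighs windows by its own reads, and 29 of the 118 CpG-rich windows had at least 3 times as many reads in the Tet1-null pool, against 1 in the WT pool. With both pools weighted equally in each window, the cluster was at 6.37% in the Tet1-null pool and 6.29% in the WT pool, a difference of 0.0832 points (-0.467 to 0.633). In the windows with 10 or more positions alone, the equally weighted difference was 0.912 points (-1.04 to 2.87) in the cluster and 0.624 points (0.266 to 0.983) in the flanks. Counted by reads over all windows, the difference was 0.176 points (-0.443 to 0.786) at sites listed in both pools. At sites with at least 3 reads per pool, also counted by reads, it was -1.23 points (-2.33 to -0.166). The direction of the difference between the pools in the cluster thus depended on which reads were counted.

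**Figure D5:**
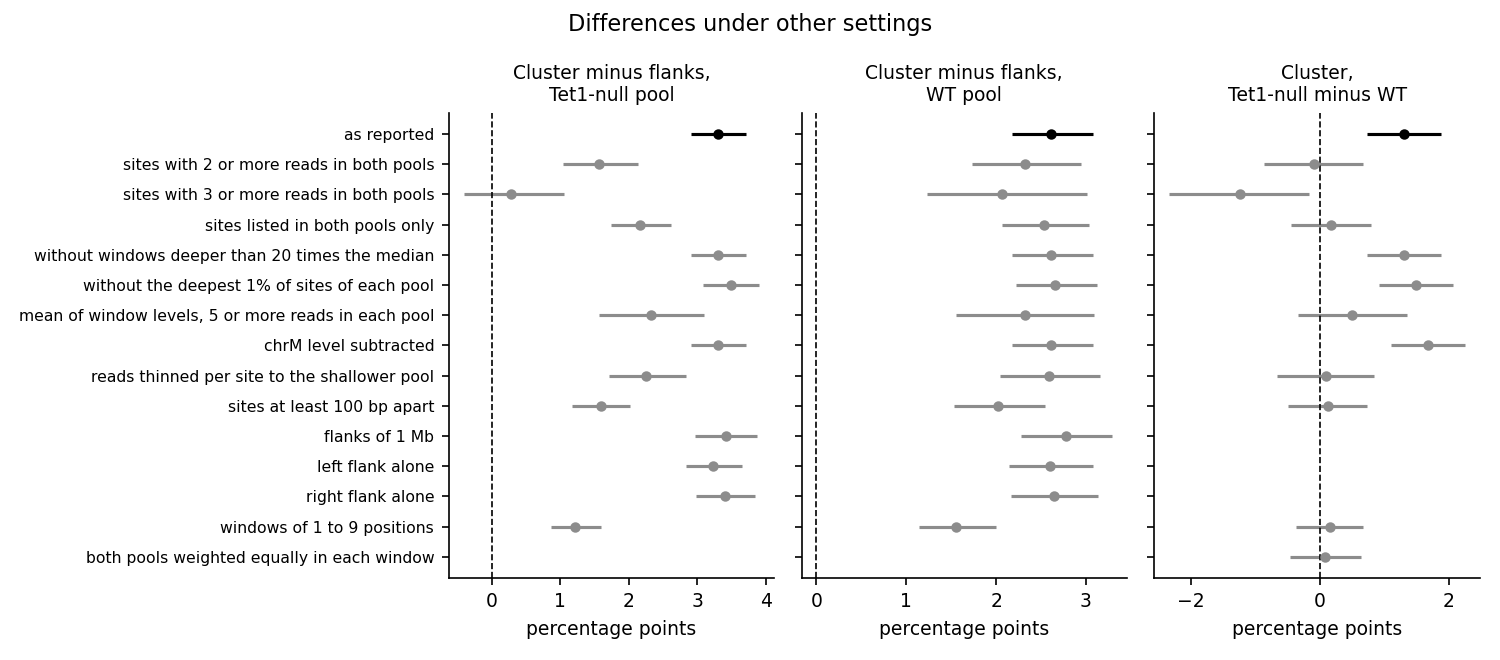
Differences in percentage points under each setting (rows), with 95% intervals: cluster minus flanks in the Tet1-null pool (left) and in the WT pool (middle), and Tet1-null minus WT in the cluster (right). Every plotted value of the left and middle panels lies above 0, with 1 interval that includes it, and the right panel holds values between -1.23 and 1.68.

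Differences of single windows went in both directions. Among the 277 windows described above, 92 had the higher level in the Tet1-null pool, 90 had the lower, and 95 had equal levels, 93 of them with no methylated read in either pool. The median difference was 0. The genome-wide test (Fisher's exact test, two-sided, Benjamini-Hochberg adjustment over 372073 windows) sets the reads of 2 pools against each other and says nothing of the spread between embryos. It could be applied to 43 members (2.47%) and called 1 with a higher and 0 with a lower Tet1-null level at an adjusted p under 0.05 and 20 points or more. Over all windows tested 0.097% were called higher and 0.0637% lower. At an unadjusted p under 0.05, 2 members were higher and 3 lower, against 2.57% and 1.91% of all windows. By a quasi-binomial F test with Benjamini-Hochberg adjustment the counts were also 1 and 0, against 0.0495% and 0.0296% of all windows.

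The called window, from 93157001 to 93158000, opens the longest CpG-rich stretch. It held 21 methylated reads of 57 in the Tet1-null pool, spread over 15 of 24 sites, and 0 of 41 in the WT pool over 22 sites. A count of 0 allows a WT level of up to 8.57% (Wilson interval). The difference was 36.8 points (22.6 to 49.8; adjusted p = 0.00411, Fisher's exact test). The next window of the stretch had 17 of 45 and 1 of 7, while the windows from 93160001 to 93163000 had 7 of 52, 4 of 41 and 5 of 38 in the Tet1-null pool and 4 of 37, 5 of 36 and 5 of 25 in the WT pool. Neighbouring sites share reads, so the 57 and 41 counts stand for fewer molecules. With sites at least 100 bp apart, the minimum for the test was lowered to 3 shared positions and 10 reads in each pool. The window did not meet it, and 0 of all 359356 windows tested were called.

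The other windows with the largest differences had too few reads in 1 or both pools for the test, apart from 92200001 to 92201000. Those higher in the Tet1-null pool, beside the called window and 92514001, were 93692001 to 93693000 (10 of 23 and 0 of 11), 92434001 to 92435000 (5 of 13 and 0 of 15) and 92843001 to 92844000 (4 of 13 and 0 of 10). Those lower were 92907001 to 92908000 (0 of 22 and 4 of 10), 92528001 to 92529000 (0 of 24 and 6 of 16), 92200001 to 92201000 (3 of 34 and 9 of 21, with an adjusted p of 0.497 by Fisher's exact test), 93253001 to 93254000 (1 of 18 and 5 of 13) and 94048001 to 94049000 (8 of 36 and 6 of 11). These windows were ranked by the difference itself, so its size is a description. They lie across the whole span, and windows that differed in opposite directions stood within 15 kb of each other around 92514001 and 92528001.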

How the data were processed

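DNA of female germ cells was tagged by Tn5 transposase, converted with bisulfite (Sigma or Zymo kit), amplified and sequenced on an Illumina HiSeq 2000, per the labels' protocols. The authors deposited, per genotype, 1 table of CpG sites with the methylation level as a fraction and the count of reads, pooled over libraries. The level times the count gave whole methylated reads at 100% of sites, within 0.0005 per read. Build mm9 and bedtools are named in the submitters' processing notes. Which aligner was used, and how duplicates were treated, is not given in the sources used here. Among the deposited material, a filter script removes a read when unconverted C outside CpG exceeds 1.2% of its bases, and its effect on the levels was not tested. Bisulfite reads do not separate 5-methylcytosine from 5-hydroxymethylcytosine. PCR reads are not independent molecules.

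Positions are printed counted from 1, reading the tables as BED. The total was 46716079 reads at 16372728 sites in the Tet1-null pool and 30386353 at 13730600 in the WT pool. Methylated and total reads were summed per window with Python 3.11.15, numpy 2.4.6, pandas 2.3.3, scipy 1.17.1 and numba 0.67.0. Levels carry Wilson intervals and differences Newcombe intervals; standardised levels, differences of differences and equal weights carry normal intervals. Fisher's test ran on all autosomal and X windows with 5 shared positions and 20 reads in each pool, and was checked on simulated data. For sites at least 100 bp apart its minimums were 3 shared positions and 10 reads. Alternatives varied the reads per site, the sites used, depth, spacing, weights, window size and flanks. Windows were named by rule: the 5 highest, the 5 with the largest difference in each direction, and any called; of the bins, the 3 highest and 3 lowest. The members, classes and rules were chosen with earlier results of these data known, and the stretches and the distance classes after the values were seen.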

Additional observations from a re-analysis of the deposited data

Results flagged for a closer look

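Windows of the span with a listed CpG in the Tet1-null pool alone took no part in the comparisons of member windows above. Their sites were counted only in the levels by distance to methylated sites. They numbered 155 and held 145 methylated reads of 903, a level of 16.1% (13.8 to 18.6%), against 3.83% and 5.62% in such windows of the flanks before and after the cluster. These reads lay in few places: 33 of the 155 windows held a methylated read, and 10 windows held 69.0% of them. The 49 windows listed in the WT pool alone had 2 methylated reads of 129, 1.55% (0.426 to 5.48%). Why windows were listed in 1 pool was not tested.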

How the results depend on the processing

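No paired analysis was possible because the tables pool the libraries of each genotype, and for the same reason no library could be left out. Of 105 alternatives to the reported values, 58 stayed within the 95% interval of the value or kept a count, 37 moved out of it, 9 reversed and 1 count became smaller. The causes of these changes were not tested. Part of the 58 could not have changed, so that count overstates how well the values held. Leaving out unusually deep windows removed 0 members, so the cluster levels were the reported ones again. Subtracting the chrM level cancels within a pool, so each excess over the flanks or chromosome 7 stayed the same. Settings restricted to windows of 1 to 9 positions and those with equal weights were added after seeing the data.

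The Tet1-null level of 7.30% was 5.43% where both pools had at least 2 reads per site, 4.30% with at least 3, 6.01% at sites in both pools, 5.76% as a mean of windows, 6.01% without the chrM level, 6.02% after thinning to equal depth and 4.87% at sites 100 bp apart. The WT level of 5.99% was 5.51% and 5.53% at sites with 2 and 3 reads, 5.26% as a mean of windows, 4.33% without the chrM level and 4.74% at spaced sites.

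The Tet1-null excess over the flanks was 1.56 and 0.278 points at sites with 2 and 3 reads, 2.17 at sites in both pools, 2.33 as a mean of windows, 2.25 after thinning, 1.59 at spaced sites and 1.22 in windows of 1 to 9 positions. The WT excess was 2.07 points with 3 reads, 2.02 at spaced sites and 1.55 in windows of 1 to 9 positions. Against chromosome 7 windows of equal CpG number, the Tet1-null excess was 1.89 and 0.718 with 2 and 3 reads, 2.44 at sites in both pools, 2.25 as a mean of windows, 2.40 after thinning and 1.56 at spaced sites, and the WT excess 2.08 as a mean of windows and 1.73 at spaced sites. All of these kept their direction.

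The Tet1-null minus WT difference reversed to -0.0886 and -1.23 points at sites with 2 and 3 reads. It was 0.176 at sites in both pools, 0.503 as a mean of windows, 0.0899 after thinning, 0.127 at spaced sites, 0.153 in windows of 1 to 9 positions and 0.0832 with equal weights. Its excess over the difference in the flanks reversed to -0.752 and -1.79 with 2 and 3 reads, -0.366 at sites in both pools, -0.334 after thinning, -0.435 at spaced sites, -0.336 in windows of 1 to 9 positions and -0.411 with equal weights, and was 0.00409 as a mean of windows. At sites 100 bp apart 0 windows were called by Fisher's exact test, with 0 higher and 3 lower of 55 members tested at an unadjusted p under 0.05, against 0 called and 652 higher and 1031 lower of 359356 windows genome-wide. At sites with 3 reads the cluster held 3512 reads in the Tet1-null pool and 2820 in the WT pool, and at a mean depth near 2 reads per site small differences are not detectable.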
